A study of Rattus norvegicus with 12 samples.

Results

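The genes described here are 10 factors and targets of the YAP and TEAD arm of the Hippo pathway, namely Yap1, Wwtr1, Tead1, Lats2, Ajuba, Amotl2, Ccn1, Ccn2, Ankrd1 and Crim1. They were taken by symbol from the raw count table of the series, which lists 33294 genes, and all 10 were among the 18438 genes that passed the filter on low counts and were tested. RNA abundance was measured by poly(A) RNA-seq in rat PAC1 cells, a smooth muscle line from pulmonary artery, after siRNA depletion of an RNA-binding protein that regulates splicing. The 12 libraries fall into 4 groups of 3 biological replicates. Cells grown to favour the more differentiated state received the control siRNA C2, an siRNA against RBPMS, a protein enriched in smooth muscle, an siRNA against RBFOX2, or an siRNA against QKI, whose gene is listed as Qk. The study reports that the control cells of its experiment with these knockdowns had a lower degree of differentiation than those of its other experiment. Every group, controls included, went through a reverse transfection and a further transfection with 90 pmol of siRNA and a lipid reagent. A single siRNA per target was used, so that effects of the siRNA and of the loss of its target cannot be told apart, and all cells come from 1 line.

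In the Hippo pathway, a kinase cascade that ends in LATS1 and LATS2 phosphorylates the coactivators YAP (Yap1) and TAZ (Wwtr1) and keeps them out of the nucleus. When the cascade is less active, for instance on a stiff matrix or under actin tension, YAP and TAZ enter the nucleus, bind the TEAD transcription factors and raise a set of target genes. Several of these targets, LATS2 and AMOTL2 among them, restrain YAP in turn, and in vascular smooth muscle the pathway is known for its part in proliferation and matrix production. RNA levels do not report the phosphorylation or the location of YAP, which were not analysed here.

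The median member moved by less than the median gene in RBPMS and RBFOX2 knockdown and by more in QKI knockdown. The largest falls were those of Crim1 and Ccn2 in QKI knockdown, where Amotl2, Wwtr1 and Tead1 were also lower while Lats2, Ajuba and Ankrd1 were higher. Yap1 itself was at between 85.1% and 88.6% of its control level in the 3 knockdowns. At an adjusted p under 0.05 (edgeR quasi-likelihood test with Benjamini-Hochberg adjustment over 18438 genes), 10 of 10 members passed in RBPMS knockdown, against 59.4% of all genes tested, with 2 higher (30.4% of all genes) and 8 lower (29%). In RBFOX2 knockdown 8 of 10 passed (60.3% of all genes), with 0 higher (30.1%) and 8 lower (30.1%). In QKI knockdown 9 of 10 passed (66.9% of all genes), with 3 higher (32.9%) and 6 lower (34%). An absolute log2 fold change above 1 together with that threshold was reached by 0, 0 and 2 members in the order RBPMS, RBFOX2 and QKI, against 9.66%, 11.7% and 17.5% of all genes. The median log2 fold change of the members was −0.20, −0.25 and −0.49 in that order, where the median over all genes tested was 0.0085, 0.015 and 0.0070. The median absolute log2 fold change was 0.24, 0.25 and 0.72 for the members and 0.33, 0.33 and 0.42 for all genes. The shares over all genes include genes with few counts, whereas each member had at least 2287 counts in every library. The part of depth in the number of members that passed was not tested. The members were also chosen with earlier results of these data known, so that these counts describe the list alone. The 3 comparisons share the control libraries, so that an unusual control value enters each of them.

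Library totals lay between 111 and 152 M counts, and a member had between 2287 and 139680 counts in a library, and the spread between replicates of a member was between 0.264% and 14.2% of its mean (CV). The siRNA targets checked the labels: Rbpms was at 17.7% of control in RBPMS knockdown, Rbfox2 at 24.2% in RBFOX2 knockdown and Qk at 11.4% in QKI knockdown. Rbpms was also lower in RBFOX2 knockdown (56.9% of control, edgeR adjusted p 2.10e-09) and in QKI knockdown (71.3%, adjusted p 9.32e-07). Qk was at 74.5% in RBFOX2 and 113% in RBPMS knockdown, and Rbfox2 at 92.0% in RBPMS and 90.2% in QKI knockdown. The knockdowns thus did not differ in a single target RNA, and the part of this in the changes of the members was not tested. One library stood apart. RBPMS-KD 2 differed from the other RBPMS-KD libraries with a chi-square per degree of freedom of 57.8 and 45.6 over genes, against 4.64 to 21.5 in the remaining pairs within groups, and it was the lowest of its group for 7 of the 10 members. Values without it are given where it decided a call of a member or pathway gene or where such a value moved most. The 10 smooth muscle markers checked here were all present and summed to 2162 to 2231 CPM in control (CPM is the count per M counts of the library after TMM scaling), 1088 to 1199 in RBPMS knockdown, 848 to 949 with RBFOX2 depletion and 1434 to 1529 in QKI knockdown. Of the 10, 8 fell and 2 rose in RBPMS knockdown, and 7 fell and 2 rose in each of the others. Myh11 rose to 207% of control in RBFOX2 and 127% in RBPMS knockdown, Des to 197% in QKI and 157% in RBPMS knockdown, and Smtn to 113% in RBFOX2 knockdown, while Myh11 in QKI knockdown passed (0.19, adjusted p 0.0474) with libraries that overlapped control. Of other cell types, 6 endothelial markers summed to 8.75 to 10.8 CPM in control, 8.90 to 9.18 in RBPMS, 5.22 to 5.81 in RBFOX2 and 6.53 to 6.85 in QKI knockdown, mostly Cdh5. In QKI knockdown 5 leukocyte markers summed to 6.11 to 6.40 CPM, mostly Csf1r, against 1.82 to 3.10 CPM in the other groups, with Ptprc at or under 3 counts in the QKI libraries. In the same libraries 4 epithelial markers summed to 5.63 to 7.39 CPM, mostly Cldn4, against 0.188 to 0.738 CPM elsewhere. The part of these marker shifts in the changes of the members was not tested, and fewer cells of a type cannot be told apart from less RNA per cell in such bulk samples.

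**Figure D1:**
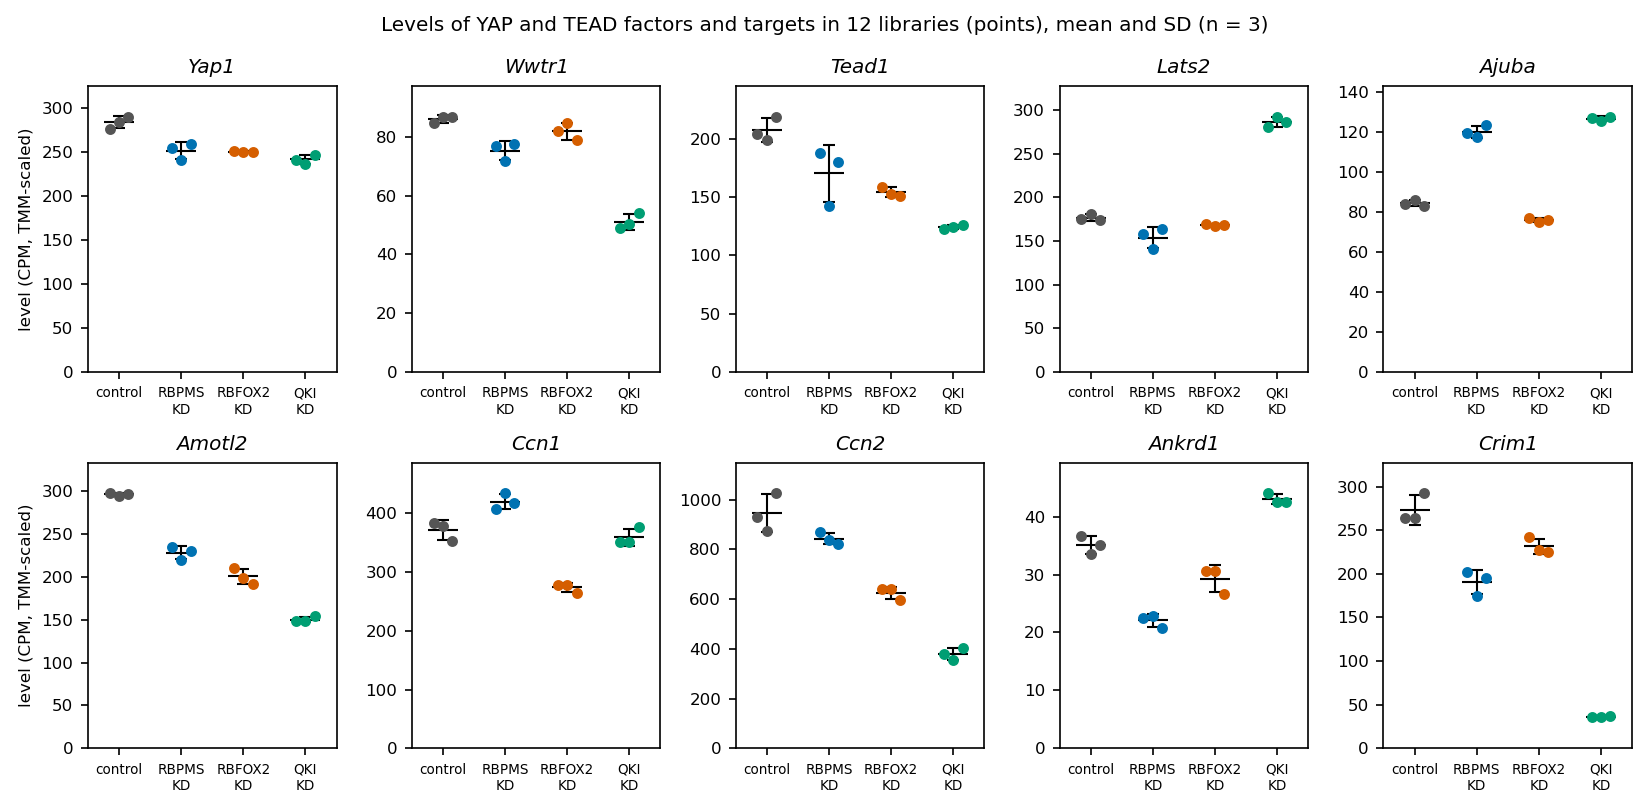
Level of each of the 10 genes (y axes, TMM-scaled CPM, each from 0) in the 12 libraries, by siRNA group on the x axes, with points for libraries and black marks for the mean and SD of 3. Crim1, Ccn2, Amotl2, Wwtr1 and Tead1 are lowest in QKI knockdown, where Lats2 and Ankrd1 are highest.

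The coactivators were examined first. Yap1, which encodes YAP, was at 277, 284 and 290 CPM in the control libraries. It was at 255, 240 and 259 CPM in RBPMS knockdown, 251, 250 and 250 after RBFOX2 knockdown and 241, 237 and 247 in QKI knockdown. All 9 knockdown libraries lay below the 3 control libraries, and the RBPMS and RBFOX2 libraries overlapped. The log2 fold change was −0.18 (SE 0.034, edgeR adjusted p 2.75e-04) in RBPMS, −0.18 (SE 0.034, adjusted p 1.90e-04) in RBFOX2 and −0.23 (SE 0.034, adjusted p 1.14e-05) in QKI knockdown. Set against each other, RBPMS and RBFOX2 knockdown differed by 0.0065 (95% interval −0.061 to 0.074, adjusted p 0.885), RBPMS and QKI knockdown by 0.057 (−0.0099 to 0.12, adjusted p 0.161), and RBFOX2 and QKI knockdown by 0.051 (−0.016 to 0.12, adjusted p 0.200). The order of the knockdowns depended on the scaling. With libraries scaled by their totals alone, RBPMS against RBFOX2 knockdown turned to −0.09 (adjusted p 0.0322), and on the normalised table to −0.11 (adjusted p 0.0149). Without RBPMS-KD 2 the difference between RBPMS and QKI knockdown was 0.088 (adjusted p 0.00953). The value in QKI knockdown against control was −0.15 with library totals alone.

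Wwtr1, which encodes TAZ, the paralogue of YAP, was at 84.7, 86.8 and 86.9 CPM in control. Its levels were 76.9, 71.7 and 77.6 CPM in RBPMS knockdown, 82.0, 84.7 and 78.9 with RBFOX2 depletion and 49.1, 50.2 and 54.2 in QKI knockdown. The QKI libraries stood well below all others, the RBPMS libraries lay under control, and the RBFOX2 libraries reached into the control range. Wwtr1 fell in QKI knockdown to 59.4% of control (log2 fold change −0.75, SE 0.044, adjusted p 6.90e-11) and in RBPMS knockdown to 87.5% (−0.19, SE 0.043, adjusted p 9.36e-04). In RBFOX2 knockdown the log2 fold change was −0.07 (95% interval −0.16 to 0.011, adjusted p 0.153). As both coactivators were read from the same library, the ratio of their raw counts needs no scale factor for the library. Counts of Wwtr1 per count of Yap1 were 0.303 ± 0.0036 (SD, n = 3) in control, 0.300 ± 0.0017 in RBPMS knockdown, 0.327 ± 0.012 after RBFOX2 knockdown and 0.212 ± 0.0079 in QKI knockdown. The QKI libraries lay below control and the RBFOX2 libraries above it without overlap (log2 difference −0.52 and 0.11, exact permutation p 0.1 each, two-sided), while the RBPMS libraries overlapped with control (−0.017, exact permutation p 0.3, and 0.0050 on the quantile-normalised table). With 3 libraries against 3 no exact p can go below 0.1, and over the 6 ratio comparisons made here the adjusted values were 0.12 at the lowest.

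Tead1 encodes a DNA-binding partner of YAP and TAZ that is common in muscle. It was at 204, 199 and 219 CPM in control, 188, 143 and 180 in RBPMS knockdown, 159, 153 and 151 with RBFOX2 depletion and 122, 125 and 126 in QKI knockdown. All knockdown libraries lay under the control libraries, those of QKI lowest, and RBPMS-KD 2 lay far under the other RBPMS libraries and inside no other group. The log2 fold change was −0.28 (SE 0.070, adjusted p 0.00216) in RBPMS, −0.43 (SE 0.070, adjusted p 5.08e-05) in RBFOX2 and −0.74 (SE 0.071, adjusted p 5.91e-08) in QKI knockdown. Without RBPMS-KD 2 the value in RBPMS knockdown was −0.17 (adjusted p 3.83e-04). Tead1 in QKI knockdown was lower than in RBPMS knockdown (RBPMS against QKI 0.46, adjusted p 2.64e-05) and than in RBFOX2 knockdown (RBFOX2 against QKI 0.31, adjusted p 8.38e-04). The difference between RBPMS and RBFOX2 knockdown was 0.14 (adjusted p 0.0956) with all libraries and 0.26 (adjusted p 5.09e-06) without RBPMS-KD 2.

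Among the regulators of the cascade, Lats2, a kinase that phosphorylates YAP and TAZ, moved in opposite directions. Its levels were 175, 181 and 174 CPM in control, 158, 141 and 163 in RBPMS knockdown, 169, 167 and 168 after RBFOX2 knockdown and 281, 293 and 286 in QKI knockdown. The QKI libraries lay above every other library and the RBPMS libraries below every other one. Lats2 rose to 162% of control in QKI knockdown (log2 fold change 0.70, SE 0.044, adjusted p 2.17e-10). With RBPMS depletion it fell (−0.20, SE 0.044, adjusted p 7.85e-04, and −0.14 without RBPMS-KD 2). In RBFOX2 knockdown the 3 libraries lay under control without overlap, and the log2 fold change of −0.07 (SE 0.044) missed the threshold with an adjusted p of 0.156. That value passed without RBPMS-KD 2 (−0.08, adjusted p 0.0135), a library of neither group compared. RBPMS-KD 2 enters it only through steps shared by all libraries, namely the filter, the scaling, the spread and the p adjustment. The Lats2 value also passed with the 6 libraries of the comparison alone (−0.07, adjusted p 0.0211). Lats1, the paralogous kinase, rose in all 3 knockdowns, with log2 fold changes of 0.25, 0.56 and 0.43 in the order RBPMS, RBFOX2 and QKI (adjusted p 8.31e-04, 1.08e-07 and 2.01e-06).

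Ajuba, a LIM-domain scaffold that binds LATS kinases and limits their action on YAP, was at 84.1, 86.2 and 82.9 CPM in control. It was at 119, 117 and 123 CPM in RBPMS knockdown, 77.1, 74.7 and 76.1 with RBFOX2 depletion and 127, 125 and 128 in QKI knockdown. The RBPMS and QKI libraries lay above control and the RBFOX2 libraries below it, with no overlap. Ajuba rose to 142% of control in RBPMS knockdown (log2 fold change 0.51, SE 0.032, adjusted p 4.69e-10) and to 150% in QKI knockdown (0.59, SE 0.032, adjusted p 3.14e-11). It fell to 90.0% in RBFOX2 knockdown (−0.15, SE 0.032, adjusted p 5.61e-04, and −0.10 with library totals alone). The RBPMS and QKI knockdowns differed from each other by −0.08 (adjusted p 0.0430). That difference missed the threshold without QKI-KD 1, 2 or 3 (adjusted p 0.0865, 0.0505 and 0.0957). It also missed it without RBPMS-KD 1 or 2 (adjusted p 0.0914 and 0.0696) and without control 1 or 2 (adjusted p 0.0579 and 0.0513). The same held with the 6 libraries of the comparison (adjusted p 0.0974), with no filter (adjusted p 0.114) and with a replicate block. Of the relatives of Ajuba among the upstream genes, Limd1 rose in all 3 knockdowns, to between 137% and 148% of control. Wtip rose in QKI knockdown (0.60, adjusted p 4.48e-09) and had log2 fold changes of −0.06 and 0.10 in RBPMS and RBFOX2 knockdown (adjusted p 0.278 and 0.0838). Both passed without RBPMS-KD 2 (−0.12 and 0.10, adjusted p 0.0186 and 0.0257), and the RBFOX2 value also with library totals alone (0.15, adjusted p 0.00932), on the normalised table and with 6 libraries.

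Amotl2 encodes an angiomotin that holds YAP at cell junctions and is itself raised by YAP. It was at 298, 295 and 297 CPM in control, 235, 220 and 231 in RBPMS knockdown, 211, 199 and 192 after RBFOX2 knockdown and 149, 148 and 154 in QKI knockdown. The 4 groups did not overlap and stood in the order control, RBPMS, RBFOX2, QKI. The log2 fold change was −0.38 (SE 0.037, adjusted p 1.24e-07), −0.56 (SE 0.037, adjusted p 6.48e-10) and −0.98 (SE 0.037, adjusted p 2.44e-13) in the 3 knockdowns, and QKI libraries held 50.7% of the control level. The step from RBPMS to RBFOX2 knockdown (0.19, adjusted p 3.49e-04) missed the threshold when libraries were scaled by their totals alone (0.09, adjusted p 0.0568). It also missed it on the normalised table (0.09, limma adjusted p 0.0722). Of its paralogues in QKI knockdown, Amot rose (0.21, adjusted p 0.00657, and 0.33 on the normalised table). Amotl1 had a value of 0.07 there (adjusted p 0.193), which passed with library totals alone (0.16, adjusted p 0.00851), on the normalised table (0.12, adjusted p 0.0298) and without RBPMS-KD 2 (adjusted p 0.0314). In RBPMS knockdown both fell, Amot by 0.28 and Amotl1 by 0.35 on the log2 scale (adjusted p 9.38e-04 and 6.09e-06).

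**Figure D2:**
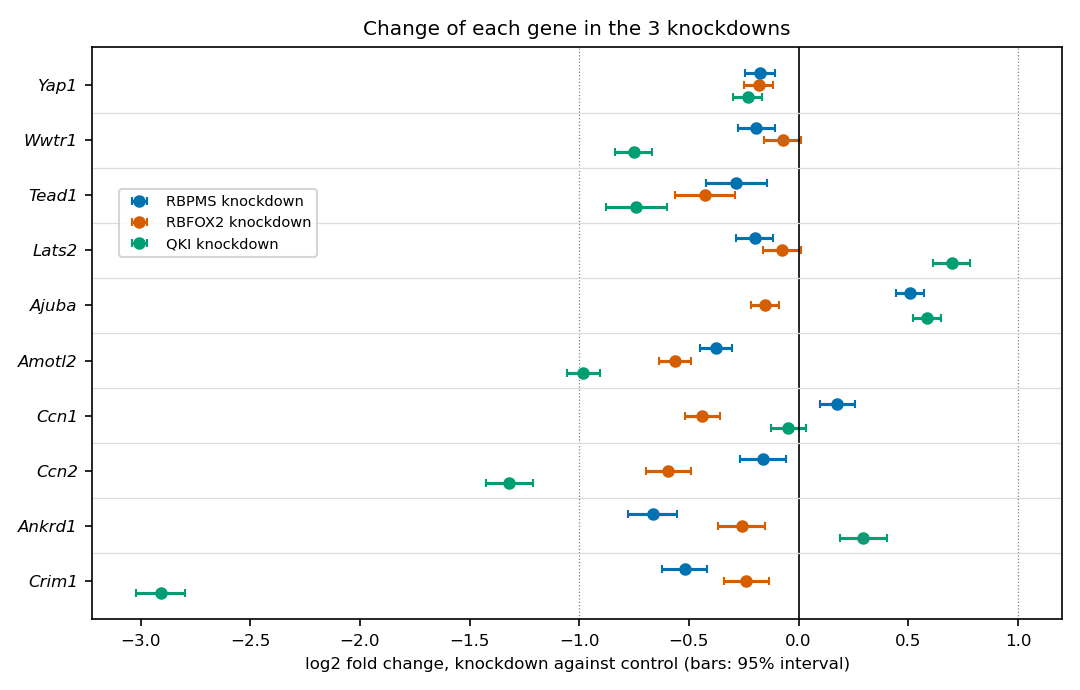
Log2 fold change of each gene (x axis) in RBPMS, RBFOX2 and QKI knockdown against control, with bars for the approximate 95% interval and dotted lines at −1 and 1. Yap1, Tead1, Amotl2, Ccn2 and Crim1 lie left of 0 in every knockdown, Crim1 reaches −2.91 in QKI knockdown, and Lats2 and Ankrd1 lie right of 0 in QKI knockdown alone.

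The targets proper are genes whose promoters or enhancers are bound by TEAD factors. The stretch before the transcript start is shown for 4 targets and regulators because it holds the letters that TEAD proteins read, GGAATG or, on the other strand, CATTCC. The sequences are the 250 bases before the annotated start in RefSeq, rat assembly GRCr8, which is a later build than the one used by the authors for alignment, written 5′ to 3′ along the gene with each match in capitals. They cover chr2:237225690-237225939 (minus strand) for Ccn1, chr1:22624615-22624864 (minus strand) for Ccn2, chr8:112182376-112182625 (plus strand) for Amotl2 and chr15:32000043-32000292 (minus strand) for Ajuba.
Ccn1: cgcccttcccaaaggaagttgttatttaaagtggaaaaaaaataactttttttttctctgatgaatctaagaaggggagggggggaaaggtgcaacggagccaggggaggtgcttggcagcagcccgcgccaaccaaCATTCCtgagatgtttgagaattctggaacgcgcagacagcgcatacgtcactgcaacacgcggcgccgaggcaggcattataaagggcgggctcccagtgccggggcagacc
Ccn2: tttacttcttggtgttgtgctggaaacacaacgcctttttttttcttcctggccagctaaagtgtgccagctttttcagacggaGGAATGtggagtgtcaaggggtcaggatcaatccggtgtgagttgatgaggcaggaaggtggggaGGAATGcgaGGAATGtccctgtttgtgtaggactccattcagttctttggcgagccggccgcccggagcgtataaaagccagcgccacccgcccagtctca
Amotl2: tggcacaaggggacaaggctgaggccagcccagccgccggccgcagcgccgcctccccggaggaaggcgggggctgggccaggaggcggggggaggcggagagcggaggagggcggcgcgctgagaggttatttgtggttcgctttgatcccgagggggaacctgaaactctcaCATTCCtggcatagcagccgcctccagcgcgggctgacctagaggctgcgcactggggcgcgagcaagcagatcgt
Ajuba: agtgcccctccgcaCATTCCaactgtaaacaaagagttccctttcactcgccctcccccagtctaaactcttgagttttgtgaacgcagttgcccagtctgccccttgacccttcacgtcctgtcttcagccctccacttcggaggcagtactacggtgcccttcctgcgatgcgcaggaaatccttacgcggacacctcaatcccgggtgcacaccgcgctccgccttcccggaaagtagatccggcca

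The upstream sequence of Ccn2 held 3 copies of the TEAD core, all on the gene's strand, with first bases 166, 101 and 92 bases before the start. Ccn1 held 1 copy on the opposite strand 113 bases before the start, and Amotl2 held 1 at 76 bases and Ajuba 1 at 236 bases, both on the opposite strand. Yap1 held 1 copy 116 bases before the start, while Wwtr1 and Crim1 held none in this window. A promoter was found for 7 of the 10 members, and those of Ankrd1, Tead1 and Lats2 were not used here. At least 1 copy was present in 5 of these 7 members (71.4%), in 12.1% of 33469 rat promoters of the same length, and in 2 of 11 other YAP targets with a promoter (18.2%). As the members were listed as factors and targets of YAP and TEAD, their share describes the list and is no test of control by TEAD. At least 3 copies were present in 27 of all promoters (0.0807%). The CArG box, the motif of serum response factor, was found in 0 of the 7 members and 1.497% of all promoters, and the AP-1 letters TGANTCA, searched on both strands, in 0 of 7 and 6.34%. With no match to either in the members, overlap with a TEAD core could not be examined there. A match describes letters, not binding, and sites outside the window were not searched.

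**Figure D3:**
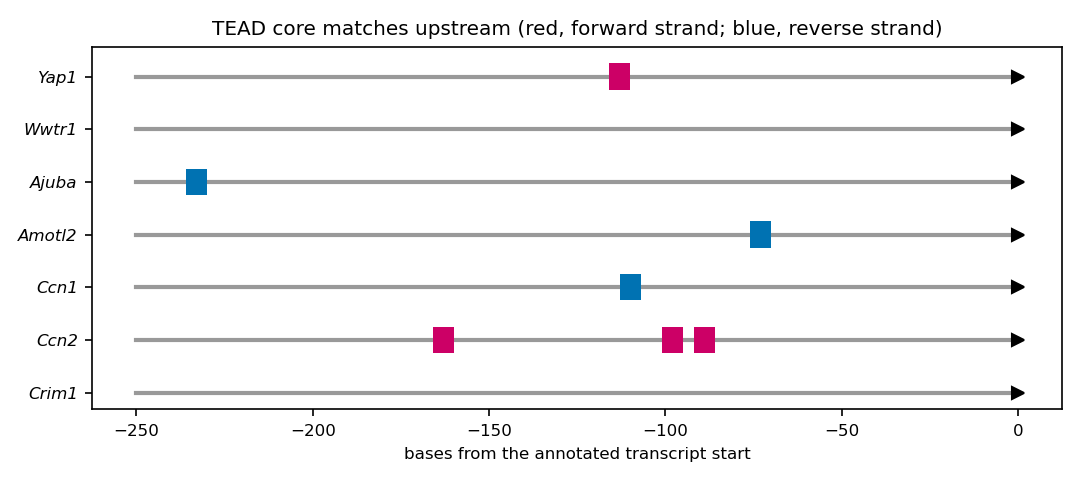
Position of TEAD core matches (boxes) in the bases before the annotated transcript start (x axis, start at 0) for 7 genes. Ccn2 has 3 boxes, at 166, 101 and 92 bases before the start, whereas Wwtr1 and Crim1 have none.

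Ccn2, which encodes the secreted matricellular protein CTGF and is among the most used readouts of YAP, was at 932, 875 and 1026 CPM in control. It was at 869, 839 and 822 CPM in RBPMS knockdown, 640, 640 and 598 with RBFOX2 depletion and 378, 356 and 402 in QKI knockdown. The RBFOX2 and QKI libraries stood clear of control and of each other, whereas the highest RBPMS library, at 869, was just under the lowest control library, at 875. Ccn2 fell to 40.1% of control in QKI knockdown (log2 fold change −1.32, SE 0.054, adjusted p 6.56e-13) and to 66.3% in RBFOX2 knockdown (−0.59, SE 0.053, adjusted p 3.76e-08). In RBPMS knockdown the log2 fold change was −0.16 (SE 0.053, adjusted p 0.0140), which missed the threshold without control 3 (−0.10, adjusted p 0.101) and without RBPMS-KD 3 (−0.15, adjusted p 0.0520).

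Ccn1 encodes CYR61, a secreted relative of CTGF and another common YAP readout. It was at 384, 378 and 352 CPM in control, 408, 434 and 417 in RBPMS knockdown, 278, 278 and 265 after RBFOX2 knockdown and 351, 352 and 376 in QKI knockdown. The RBPMS libraries lay above control, the RBFOX2 libraries below it, and the QKI libraries overlapped with it. Ccn1 fell to 73.7% of control in RBFOX2 knockdown (log2 fold change −0.44, SE 0.041, adjusted p 5.28e-08). It rose to 113% in RBPMS knockdown (0.18, SE 0.041, adjusted p 0.00112), and on the normalised table by 0.10 (adjusted p 0.0349). In QKI knockdown the log2 fold change was −0.05 (95% interval −0.13 to 0.033, adjusted p 0.326), and its sign turned to 0.04 when libraries were scaled by their totals alone.

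Because Ccn1 and Ccn2 responded unequally, their ratio within each library was computed. It was 2.43, 2.32 and 2.91 in the control libraries, 2.13, 1.93 and 1.97 in RBPMS knockdown, 2.30, 2.30 and 2.26 with RBFOX2 depletion and 1.08, 1.01 and 1.07 in QKI knockdown. No knockdown library reached the control range, and the QKI libraries lay far below the others. The log2 difference from control was −1.27 (SE 0.10) in QKI, −0.34 (SE 0.11) in RBPMS and −0.15 (SE 0.10) in RBFOX2 knockdown (exact permutation p 0.1 each, the smallest that 3 against 3 can give, 0.12 adjusted). The RBFOX2 value rested on control 3 and was −0.05 without it.

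**Figure D4:**
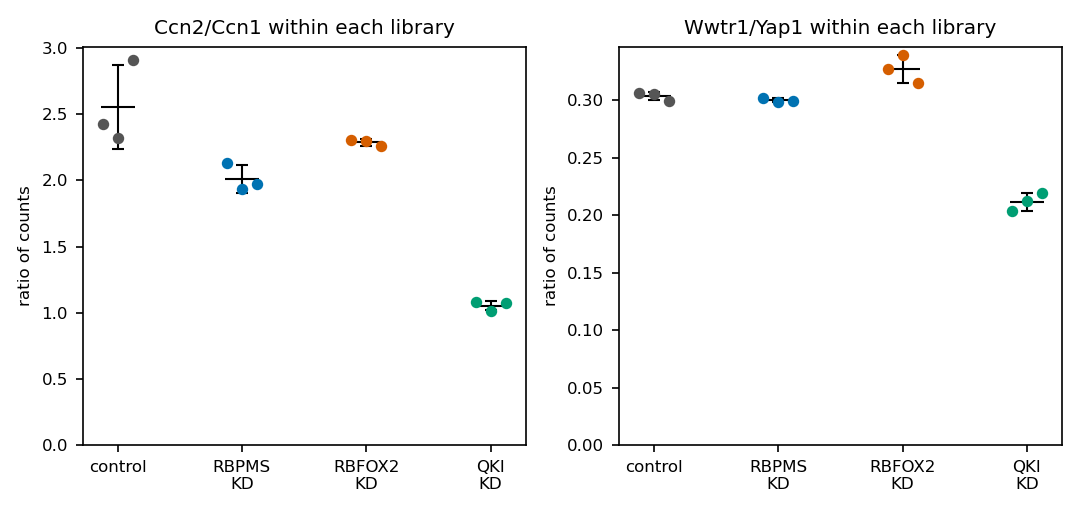
Ratio of raw counts of Ccn2 to Ccn1 (left) and of Wwtr1 to Yap1 (right) in each library (points), with mean and SD of 3, both y axes from 0. In QKI knockdown the ratios are 1.05 ± 0.036 and 0.212 ± 0.0079, below every library of the other groups.

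Ankrd1 encodes an ankyrin repeat protein of muscle that shuttles between sarcomere and nucleus, and it had the lowest counts of the 10 members. It was at 36.7, 33.5 and 35.0 CPM in control, 22.6, 22.9 and 20.8 in RBPMS knockdown, 30.7, 30.6 and 26.6 after RBFOX2 knockdown and 44.0, 42.5 and 42.5 in QKI knockdown. The 4 groups did not overlap, with QKI above control and RBFOX2 and RBPMS below it. Ankrd1 fell to 63.0% of control in RBPMS knockdown (log2 fold change −0.67, SE 0.056, adjusted p 1.77e-08) and to 83.5% in RBFOX2 knockdown (−0.26, SE 0.055, adjusted p 5.77e-04). It rose to 123% in QKI knockdown (0.29, SE 0.055, adjusted p 1.38e-04). In QKI knockdown Ankrd1 and Ccn2 moved in opposite directions, while in RBPMS knockdown Ankrd1 and Ccn1 did.

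Crim1 encodes a transmembrane protein with cysteine-rich repeats that binds growth factors of the BMP family. It was at 264, 263 and 292 CPM in control, 202, 175 and 196 in RBPMS knockdown, 242, 228 and 225 with RBFOX2 depletion and 36.3, 35.3 and 37.5 in QKI knockdown. Every knockdown library lay below control and the QKI libraries formed a tight group far beneath the rest. In QKI knockdown Crim1 fell to 13.3% of control (−2.91 on the log2 scale, SE 0.057, adjusted p 6.20e-17), where 108 of the 18438 genes tested had a lower value. It fell to 69.8% in RBPMS knockdown (−0.52, SE 0.052, adjusted p 1.65e-07) and to 84.8% in RBFOX2 knockdown (−0.24, SE 0.052, adjusted p 7.46e-04). Without RBPMS-KD 2 the value in RBPMS knockdown was −0.46.

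The knockdowns were also compared with each other for all members. Between RBPMS and RBFOX2 knockdown 8 of 10 members passed the adjusted p (56.7% of all genes tested), 4 of them higher with RBPMS depletion and 4 lower. The largest differences were those of Ajuba (0.66, adjusted p 2.77e-11), Ccn1 (0.62, adjusted p 1.37e-09) and Ccn2 (0.43, adjusted p 2.62e-06), all higher with RBPMS depletion, and that of Ankrd1 (−0.41, adjusted p 9.15e-06), which was lower. The smaller differences of Wwtr1 (−0.12, adjusted p 0.0259) and Lats2 (−0.13, adjusted p 0.0214) both missed the threshold without RBPMS-KD 2 (adjusted p 0.0743 and 0.0609). They also missed it with the 6 libraries of the comparison (adjusted p 0.0585 and 0.0761). Wwtr1 missed it without RBFOX2-KD 1 or 2 as well (adjusted p 0.0744 and 0.156), and Lats2 without RBFOX2-KD 1, 2 or 3 (adjusted p 0.0678, 0.0597 and 0.0586). Between RBPMS and QKI knockdown 9 of 10 passed (61% of all genes), 6 higher with RBPMS depletion and 3 lower. Ajuba was among the 3 lower, and its call was lost in the fits named above. Crim1 differed by 2.39 (adjusted p 8.89e-16) and Ccn2 by 1.16 (adjusted p 6.58e-12), while Ankrd1 differed by −0.96 (adjusted p 1.27e-10) and Lats2 by −0.90 (adjusted p 1.32e-11). The difference of Ccn1 (0.22, adjusted p 1.27e-04) missed the threshold when libraries were scaled by their totals alone (0.09, adjusted p 0.0573). On the normalised table it was 0.05 (limma adjusted p 0.265). Between RBFOX2 and QKI knockdown 9 of 10 passed (68.5% of all genes), 5 higher with RBFOX2 depletion and 4 lower. Crim1 differed there by 2.67 (adjusted p 1.86e-16), Lats2 by −0.77 (adjusted p 6.05e-11) and Ajuba by −0.74 (adjusted p 1.58e-12).

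Across the 3 log2 fold changes the pair of members with the most similar pattern was Amotl2 and Tead1, with a root mean square difference of 0.17, followed by Wwtr1 and Tead1 (0.21) and Ccn2 and Amotl2 (0.23). The least alike were Ajuba and Crim1 (2.10). Ccn1 and Ccn2 differed by 0.77 and Yap1 and Wwtr1 by 0.31. Among 10707 genes at 5 CPM or more on average, those nearest to 4 of the members were ranked by the same measure. For Yap1 these were Anapc2, a subunit of the anaphase-promoting complex (0.0077), Rnf19a, a ubiquitin ligase (0.011), and Nrdc, a metalloprotease (0.013). Tead1 had E2f7, a repressor of the E2F family (0.013), LOC102552000 (0.027) and Rxra, the retinoid X receptor alpha (0.031). Nearest to Ccn1 were Eef1b2, a translation elongation factor (0.018), LOC100362987 (0.049) and Eif3m, a translation initiation factor (0.049). Ccn2 had Cdc42ep3, an effector of CDC42 (0.035), Emc1, part of a membrane insertion complex (0.055), and Dnajb14, a co-chaperone (0.059). The measure spans 3 comparisons that share their controls and describes likeness alone.

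The other genes of the pathway were taken from lists. Of the other TEAD factors and the VGLL proteins, which bind TEADs in place of YAP, 6 of 7 were tested. Those past the adjusted p were 6 in RBPMS knockdown (1 higher, 5 lower), 5 in RBFOX2 knockdown (0 higher, 5 lower) and 3 in QKI knockdown (0 higher, 3 lower), against 59.4%, 60.3% and 66.9% of all genes, with median log2 fold changes of −0.53, −0.72 and −0.37. Tead2 was at 10.2, 9.75 and 11.8 CPM in control, 3.11, 3.86 and 3.83 in RBPMS knockdown, 3.05, 3.00 and 3.07 after RBFOX2 knockdown and 12.4, 11.3 and 11.8 in QKI knockdown. It fell with RBPMS and RBFOX2 depletion (log2 fold change −1.55 and −1.80, adjusted p 1.05e-10 and 1.18e-11), and the QKI libraries reached into and above the control range (0.16, adjusted p 0.0781). For this paralogue the QKI value passed when libraries were scaled by their totals alone (0.25, adjusted p 0.00913) and on the normalised table (0.30, limma adjusted p 0.00676). It also passed with halved counts (adjusted p 0.0485), without control 3 (0.25, adjusted p 0.0120) and without RBPMS-KD 1 (adjusted p 0.0454). Tead4 fell in all knockdowns, by 0.25, 0.85 and 0.80 on the log2 scale in the order RBPMS, RBFOX2 and QKI (adjusted p 1.49e-04, 4.44e-11 and 5.40e-11). Tead3 fell in RBPMS and RBFOX2 knockdown (−0.35 and −0.33, adjusted p 4.26e-06 and 6.56e-06) and had a log2 fold change of 0.10 in QKI knockdown (adjusted p 0.0748), which passed with library totals alone (0.18, adjusted p 0.00203), on the normalised table (0.14, adjusted p 0.0160), with halved counts, with 6 libraries and without RBPMS-KD 2 (adjusted p 0.0349).

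Vgll4, a TEAD cofactor that opposes YAP, fell in all 3 knockdowns. It was at 181, 180 and 180 CPM in control, 91.1, 94.5 and 89.0 in RBPMS knockdown, 120, 117 and 123 with RBFOX2 depletion and 61.1, 63.6 and 63.1 in QKI knockdown, with no overlap between groups. The log2 fold changes were −0.98, −0.59 and −1.53 (adjusted p 2.28e-13, 8.10e-11 and 2.59e-16). Vgll3, another TEAD-binding cofactor, fell in RBPMS and RBFOX2 knockdown (−0.71 and −1.28, adjusted p 2.25e-10 and 8.85e-14) and had a value of 0.06 in QKI knockdown (adjusted p 0.231), which passed with library totals alone (0.14, adjusted p 0.00573) and on the normalised table (0.12, adjusted p 0.0213). Vgll2 was near the limit of detection, with 6, 6 and 2 counts in the control libraries, 10, 10 and 12 in RBPMS knockdown and 0, 1 and 0 in QKI knockdown. It gave the only higher call of this list, in RBPMS knockdown, which missed the threshold with DESeq2 (adjusted p 0.120), with no filter (adjusted p 0.202), with a replicate block and in 11 of 12 fits without 1 library, and 1 of the 3 lower calls in QKI knockdown. The list median of −0.37 in QKI knockdown depends on this gene, whose log2 fold change there was −3.29. With Vgll2 left out, the middle value of the list in QKI knockdown is that of Vgll3, at 0.06.

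Of the 20 upstream Hippo genes, 17 passed in RBPMS knockdown (7 higher, 10 lower), 15 in RBFOX2 knockdown (8 higher, 7 lower) and 17 in QKI knockdown (10 higher, 7 lower), where 59.4%, 60.3% and 66.9% of all genes passed. Their median log2 fold changes were −0.12, 0.085 and 0.13. Map4k4, a kinase that acts on LATS, was at 488, 487 and 512 CPM in control and 245, 250 and 246 in QKI knockdown (log2 fold change −1.01, SE 0.041, adjusted p 6.53e-13). It also fell in RBPMS knockdown (−0.50, adjusted p 1.23e-08) and, by less, in RBFOX2 knockdown (−0.19, adjusted p 7.14e-04, and −0.06 with an adjusted p of 0.265 from limma on the normalised table). Wwc1, the scaffold KIBRA, was low in all libraries and fell in each knockdown, in QKI knockdown from 2.79 to 0.450 CPM on average (−2.63, adjusted p 9.84e-12). Fat4, a giant cadherin upstream of the pathway, rose to 208% of control in RBFOX2 knockdown (1.06, adjusted p 3.98e-08) and had log2 fold changes of −0.32 in RBPMS knockdown (adjusted p 0.00862, and −0.17 without RBPMS-KD 2) and −0.02 in QKI knockdown (adjusted p 0.865). Dchs1, which encodes the ligand of FAT4, had 6, 14 and 10 counts in control and 36, 24 and 26 in QKI knockdown.

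**Figure D5:**
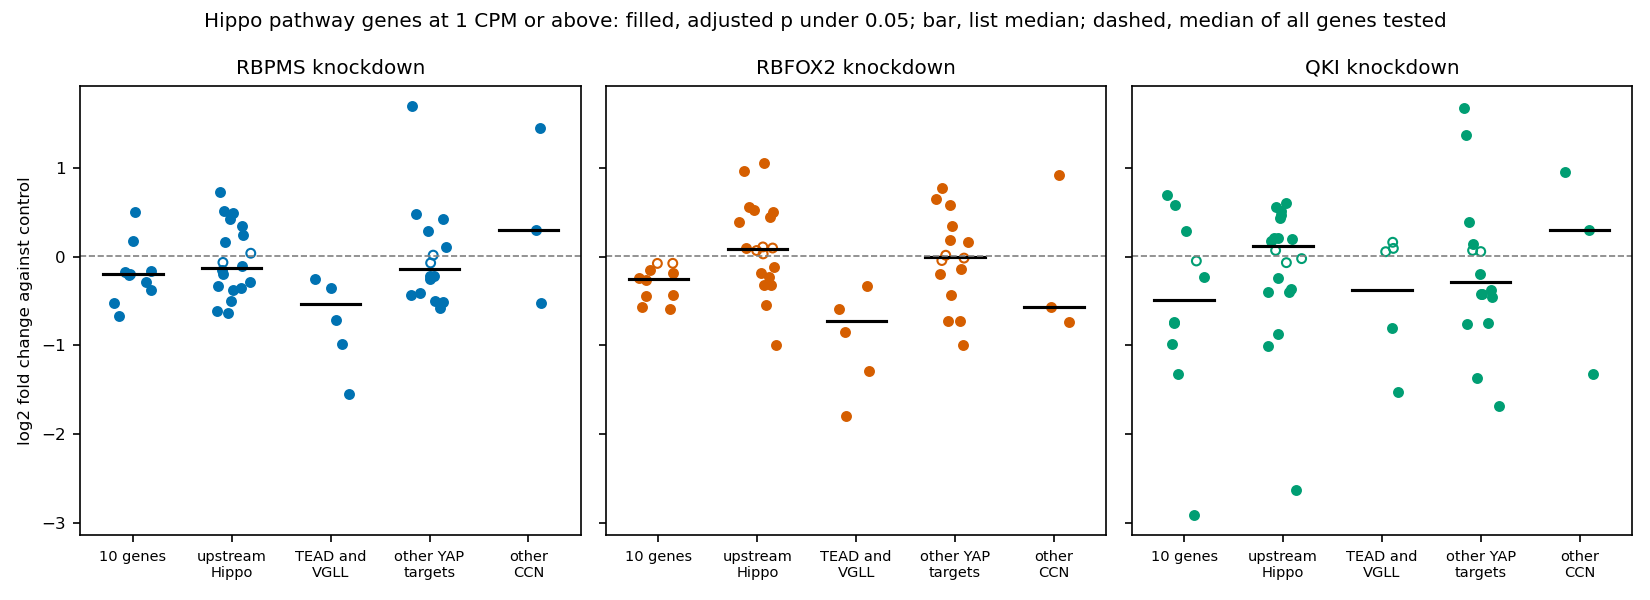
Log2 fold change against control (y axis) of the 10 genes and of 4 further lists (x axis) in each knockdown, for genes reaching 1 CPM in either group mean. Filled points passed an adjusted p of 0.05, bars are medians over all tested genes of a list and the dashed line is the median of all 18438 genes. In RBFOX2 knockdown the TEAD and VGLL genes have a median of −0.72, against 0.085 for the upstream genes.

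Of the 16 other YAP targets, 14 passed in RBPMS knockdown (6 higher, 8 lower), 13 in RBFOX2 knockdown (7 higher, 6 lower) and 13 in QKI knockdown (4 higher, 9 lower), beside 59.4%, 60.3% and 66.9% of all genes, with medians of −0.14, 0.0019 and −0.28. F3, the tissue factor that starts coagulation, was at 11.72, 12.04 and 12.46 CPM in control and 39.92, 36.52 and 39.98 in QKI knockdown (log2 fold change 1.68, adjusted p 4.38e-13). It rose in RBFOX2 knockdown (0.58, adjusted p 8.51e-07) and fell in RBPMS knockdown (−0.43, adjusted p 4.30e-05). Gadd45a, a stress-response gene, rose in RBPMS, RBFOX2 and QKI knockdown (1.70, 0.77 and 1.38, adjusted p 1.65e-11, 2.81e-07 and 9.11e-11). Tgfb2, which encodes the ligand TGF-beta 2, fell to 31.2% of control in QKI knockdown (−1.68, adjusted p 5.40e-13) and by 0.25 on the log2 scale in RBPMS knockdown (adjusted p 0.00326, and −0.15 without control 3), and its value of 0.19 in RBFOX2 knockdown (adjusted p 0.0210) came from overlapping libraries and missed the threshold without control 2 (0.12, adjusted p 0.132). Rbms3, an RNA-binding protein, fell in QKI and RBPMS knockdown (−1.36 and −0.58, adjusted p 5.57e-11 and 3.17e-06) and had a value of −0.01 in RBFOX2 knockdown (adjusted p 0.879). Igfbp3, a binding protein of insulin-like growth factors, had 0, 10 and 0 counts in control, 26, 16 and 18 in RBPMS knockdown and 30, 44 and 24 in RBFOX2 knockdown.

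The remaining CCN genes, relatives of Ccn1 and Ccn2, were tested for 3 of 4, and each of these passed in every knockdown (59.4%, 60.3% and 66.9% of all genes in the order RBPMS, RBFOX2 and QKI). Ccn3 was at 69.1, 70.0 and 75.1 CPM in control, 50.6, 48.4 and 50.1 in RBPMS knockdown, 51.3, 49.3 and 43.7 after RBFOX2 knockdown and 29.6, 29.6 and 26.3 in QKI knockdown. It was below control in all 9 knockdown libraries (log2 fold change −0.52, −0.57 and −1.33, adjusted p 4.54e-07, 1.41e-07 and 1.74e-12). Ccn4 rose in RBPMS and QKI knockdown (0.30 and 0.96, adjusted p 2.93e-05 and 7.28e-12) and fell in RBFOX2 knockdown (−0.74, adjusted p 5.41e-10). Ccn5, in contrast, rose in RBPMS, RBFOX2 and QKI knockdown (1.45, 0.93 and 0.30, adjusted p 3.57e-13, 6.59e-11 and 5.74e-05).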

How the data were processed

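RNA from siRNA-treated PAC1 cells was poly(A)-selected and sequenced as paired ends by the authors. Per the labels the second transfection followed after 24 h and harvest 48 h later, whereas the study states longer times. The authors aligned reads with STAR and deposited raw counts per gene made with featureCounts and a RefSeq annotation. The submitters' processing notes name STAR 2.5.2a, while the study's methods name a later version, reads subsampled to equal depth and the assembly mRatBN7.2. The totals of the deposited counts were not equal, at 111 to 152 M per library. Which version and assembly gave these counts was not resolved. They also deposited a noise-filtered, quantile-normalised signal for 22320 genes, used here only as an alternative. Strand use and multi-mapping in the counting are not given in the sources used here, so reads of overlapping or antisense genes cannot be told apart. Of count values from 1 to 19, 68.1% were even, against 50.9% above 1000, and a fit on halved counts was tried.

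Groups and replicate numbers came from the sample titles. Counts were filtered with filterByExpr, scaled by TMM and tested with edgeR 4.0.16 (R 4.3.3) glmQLFit and glmQLFTest, two-sided, in 1 fit of 12 libraries with a coefficient per group, and p-values were adjusted by Benjamini-Hochberg over 18438 genes. The SE is the absolute log2 fold change divided by the square root of F, and 95% intervals take the normal quantile of it. Such intervals are approximate and narrower than the test implies. For Tead1 between RBPMS and RBFOX2 knockdown the interval was 0.0044 to 0.28, with an unadjusted edgeR p of 0.0598. Levels were not compared between genes, since gene lengths were not used. Ratios of counts were compared on the log2 scale by exact permutation tests in scipy 1.17.1. Depth was 111 to 152 M counts, and no pair of libraries agreed within sampling noise (chi-square per degree of freedom of 4.64 or above). A gene group with at most 3 counts in each library was taken as being at the floor. The fit was tested on simulated data. Alternatives were DESeq2 1.42.0, RLE factors, library totals, no filter, halved counts, the 6 libraries of each comparison, a replicate block, limma 3.58.1 on the normalised table with pseudocounts of 1 and 10, and each library left out.

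The members and lists were chosen with earlier results of these data known. Named list genes were those past the adjusted p with an absolute log2 fold change above 1 in a knockdown, and paralogues of members were added after their values were seen. Promoters came from RefSeq for GRCr8. The pictured positions and printed sequences come from that build alone. No sequence of Ankrd1, Tead1 or Lats2 was used here. Of the leukocyte markers, 1 is not reported here.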

Additional observations from a re-analysis of the deposited data

How the results depend on the processing

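Of the members' log2 fold changes against control, 623 of 630 values under the alternatives kept direction and side of the threshold, as did 594 of 630 between knockdowns, and the cause of the exceptions was not tested. These values are not independent. They include fits that leave out a library of neither group compared, where the estimate could barely move, and near-equal settings such as the pseudocounts of 1 and 10. The count of members past the threshold ranged from 9 to 10 in RBPMS, 8 to 9 in RBFOX2 and 9 to 9 in QKI knockdown, from 6 to 9 between RBPMS and RBFOX2 and from 8 to 9 between RBPMS and QKI. Scaling by library totals and the normalised table (pseudocounts 1 and 10) gave Ccn1 in QKI knockdown 0.0389, 0.0474 and 0.0474, Fat4 in QKI knockdown 0.0655, 0.0803 and 0.0801, Yap1 in RBPMS against RBFOX2 −0.0919, −0.107 and −0.107 (adjusted p 0.0322, 0.0149 and 0.0150), and Yap1 in RBPMS against QKI −0.0726, −0.0670 and −0.0670. Library totals gave Rbms3 in RBFOX2 knockdown 0.0402, and the normalised table gave the Wwtr1 to Yap1 log2 ratio in RBPMS knockdown 0.00499 and 0.00513. Leaving out 1 library turned the sign of Fat4 in QKI knockdown (0.00803 without QKI-KD 3, 0.0121 without control 3, range −0.0681 to 0.0121), Rbms3 in RBFOX2 knockdown (0.0476 without control 3, range −0.0534 to 0.0476), Igfbp3 in QKI knockdown (−0.492 without QKI-KD 1, range −0.492 to 5.45) and Yap1 in RBPMS against RBFOX2 (−0.00217 and −0.0141 without RBPMS-KD 1 and 3, range −0.0141 to 0.0375).

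Replicate numbers did not pair the libraries (r from −0.344 to 0.245 over 18 pairs, 4 above 0.1, with 3 of 12 libraries closest to their own number). With a replicate block the counts in RBPMS, RBFOX2 and QKI knockdown were 10, 8 and 9, and Ajuba between RBPMS and QKI missed the threshold (−0.08, adjusted p 0.0593). The largest shift of the median of all genes under another scaling was 0.0858, in QKI knockdown with library totals. Depth limits the genes with few counts, Vgll2, Dchs1 and Igfbp3.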
